A study of Mus musculus with 14 samples.

Results

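Cortical neuron cultures from the 2 mouse lines of a BRG1 phosphosite study were compared with each other in the unstimulated (basal) state. BRG1, encoded by Smarca4 (chromosome 9, 21616169 to 21704230, GRCm38), is the ATP-driven motor of BAF complexes, which move nucleosomes. In the SE line the phosphorylated serine S1382 of BRG1 is replaced by glutamate, which carries a negative charge like a phosphate, and in the SA line by alanine, which cannot be phosphorylated. The members were chosen by their labels: all 7 basal libraries of the 14 in the series, 3 from the SE line and 4 from the SA line. The SE line gave 2 libraries of Brg1-SE cultures and 1 of wild-type littermate cultures, and the SA line gave 2 libraries of Brg1-SA cultures and 2 of wild-type littermate cultures. The other 7 libraries are the same set after 50 mM KCl for 1 h.

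All cultures were dissociated from cortex of E16.5 embryos. The protocol describes growth in serum-free neuronal medium, silencing with 1 µM tetrodotoxin and 100 µM APV on day 5 in vitro, and addition of KCl on day 6, and it does not say whether the basal cultures were silenced in the same way. Tetrodotoxin blocks voltage-gated sodium channels and APV blocks NMDA receptors. A Brg1-SE or Brg1-SA library is matched to a littermate control, whereas libraries of the 2 lines come from different litters and may also differ in culture preparation. Line, litter, preparation and genetic background cannot be told apart here, and mouse strain is not given in the sources used. Between Brg1-SE and Brg1-SA libraries the BRG1 allele differs too. The labels do not say whether replicates are separate embryos or preparations, so the p-values measure the spread between these libraries. In the SA line the 2 replicates of each genotype were of opposite sex, as given below, so they came from different embryos. Whether they were separate preparations is not known. In the SE line the spread may be technical.

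The embryonic cortex makes its neurons from radial glia that divide along the ventricle. Subplate and deep-layer neurons are born first, upper-layer neurons later, and astrocytes and oligodendrocytes mostly after the neurons. GABAergic interneurons are made in the ganglionic eminences below the cortex and migrate in. A dissociated cortical culture therefore holds glutamatergic neurons of several layers, interneurons, remaining progenitors, glial precursors and a few cells of vessels, meninges or choroid plexus, and its makeup depends on the age, the dissected region and the culture conditions. In bulk RNA, fewer cells of a type and less RNA per cell cannot be told apart.

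The 7 libraries held 22625916 to 22962088 estimated counts each. Transcripts of the pan-neuronal tubulin Tubb3 were abundant in both lines, at 1377 ± 96 TPM (SD, n = 3) in the SE line and 1651 ± 244 TPM (SD, n = 4) in the SA line. The cultures are labelled as cortical neurons, and the astrocyte filament gene Gfap was present in them as well, at 117 ± 7.73 TPM and 551 ± 149 TPM. The first principal component held 73.9% of the variance and separated the lines, with scores from -83.7 to -75.5 in the SE line and from 36.2 to 80.7 in the SA line. The second held 11.3% and set 1 library apart, replicate 1 of the wild-type SA-line cultures, at 56.2. The median SD of a gene on the log2 scale was 0.118 among the SE-line libraries and 0.248 among the SA-line libraries, or 0.185 without that library. Ribosomal RNA took 0.339% to 0.405% of counts in the SE line and 0.188% to 0.236% in the SA line, whereas transcripts with a retained intron took 1.57% to 1.67% over both. The part of these differences in the results was not tested.

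Between lines, 8483 of 17732 genes passed the test (47.8%; edgeR quasi-likelihood, Benjamini-Hochberg adjusted p under 0.05). Of these, 3866 (21.8%) were higher and 4617 (26.0%) were lower in the SE line. Large differences were mostly on the lower side, with 1071 genes (6.04%) at least 2-fold higher and 2937 (16.6%) at least 2-fold lower. For 9690 genes (54.6%) the 3 values of one line did not overlap the 4 of the other, 4770 (26.9%) with the SE line above and 4920 (27.7%) with it below. The median log2 difference over all genes was 0.003. Scaling by library totals alone shifted that median to -0.12 and left 2741 genes higher and 5396 lower, so that 33.7% of calls were higher against 45.6% in the main fit. Without replicate 1 of the wild-type SA-line cultures, 7863 genes passed.

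The lines were then compared within wild-type and within mutant cultures. Between the wild-type cultures alone (1 SE-line library against 2), 5067 genes passed (28.6%), 2155 higher (12.2%) and 2912 lower (16.4%), where the single library was assumed to vary like the other groups. Between the mutant cultures alone (2 against 2), 5334 passed (30.1%), 2036 higher (11.5%) and 3298 lower (18.6%). The mutant comparison carries the difference between the Brg1-SE and Brg1-SA alleles as well as that between lines. The mutant count rested on few libraries and fell to 2812 without Brg1-SA replicate 2, to 3302 without Brg1-SE replicate 1 and to 2571 without Brg1-SE replicate 2. These comparisons share no library. They had 1478 higher calls in common, 68.6% of the wild-type and 72.6% of the mutant list, and 2492 lower calls, 85.6% and 75.6%, with 0 genes called in opposite directions. Across the 17732 genes, which are not independent replicates, the log2 differences in wild-type and in mutant cultures correlated with a Pearson r of 0.806. A test of whether the line difference itself differed between mutant and wild-type cultures called 0 genes with edgeR and 0 with DESeq2. An unadjusted p under 0.05 was found for 333 genes with edgeR and 181 with DESeq2 (886.6 would by chance if no gene differed). Both counts lie below that number, and the SE-line wild type had 1 library. The test may therefore have missed differences, and its 0 calls do not show equal line differences in mutant and wild-type cultures. Smarca4 measured 453, 449 and 445 CPM (counts scaled to the size of each library) in the SE-line libraries and 434, 419, 381 and 439 CPM in the SA-line libraries, a log2 difference of 0.10 ± 0.091 (edgeR adjusted p = 0.381). The ± after each log2 difference is an approximate standard error, the size of the difference divided by the square root of its edgeR F statistic. A negative difference is a lower level in the SE line. Values are always given in the same order, Brg1-SE replicates 1 and 2 and the SE-line wild type, then Brg1-SA replicates 1 and 2 and SA-line wild-type replicates 1 and 2.

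**Figure D1:**
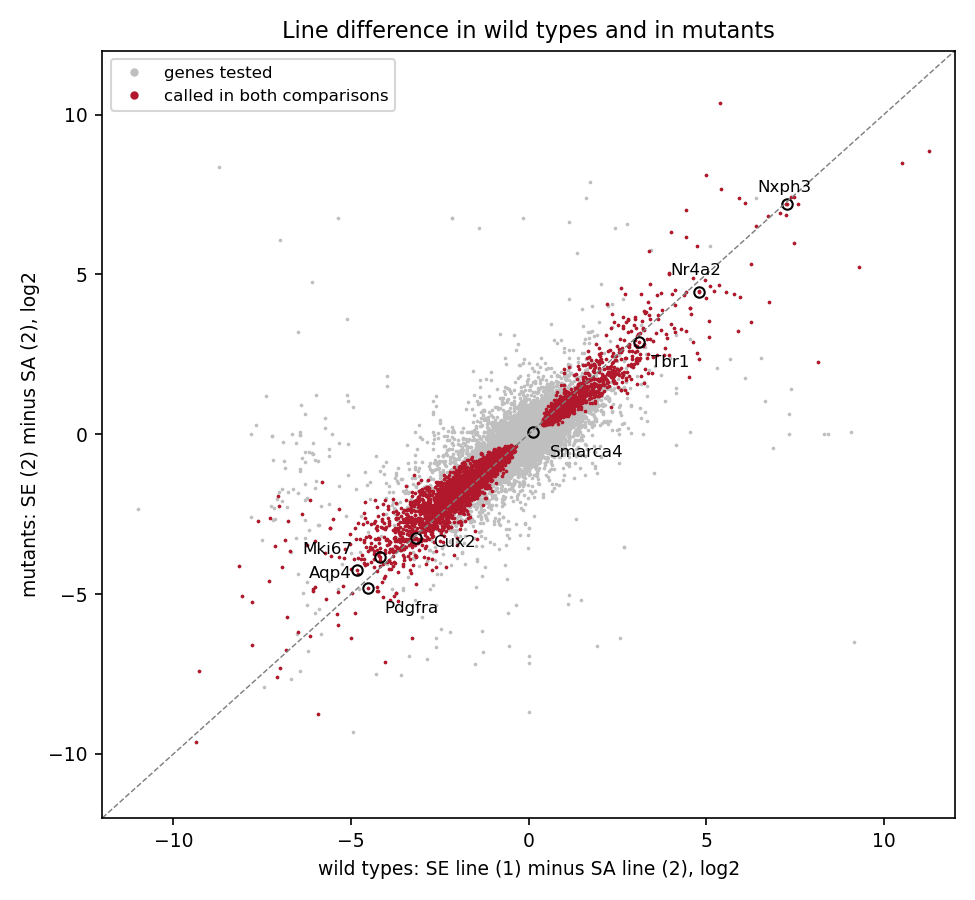
Log2 difference of each gene between the SE and the SA line in mutant cultures (y axis, 2 against 2 libraries) against the same in wild-type cultures (x axis, 1 against 2 libraries), 17732 genes, with selected genes labelled. Points spread along the diagonal (r = 0.806), with Nxph3, Nr4a2 and Tbr1 high and Mki67, Pdgfra, Aqp4 and Cux2 low on both axes, while Smarca4 lies near 0.

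Genes of deep-layer neurons were mostly higher in the SE line. Of 16 deep-layer genes, 10 were higher and 1 was lower, with a median log2 difference of 2.08 against 0.003 over all genes. Their CPM values summed to 2485, 2423 and 2511 in the SE-line libraries and to 678, 621, 540.0 and 665 in the SA-line libraries. The counts were the same in wild-type cultures alone and without SA-line wild-type replicate 1. Tbr1 (chromosome 2, 61802930 to 61814114), a transcription factor of the deepest cortical layer and the subplate, measured 439, 445 and 475 CPM against 66.9, 53.1, 54.7 and 55.6 CPM. Every SE-line library was far above every SA-line library, and the log2 difference was 2.98 ± 0.10 (edgeR adjusted p = 2.54e-07). Tle4, a co-repressor of corticothalamic neurons, measured 346, 329 and 363 against 25.2, 29.8, 37 and 30.8 CPM (3.5 ± 0.12). Fezf2, which specifies subcerebral projection neurons, measured 159.8, 166 and 148 against 9.7, 11.2, 18.5 and 8.92 CPM (3.72 ± 0.24). Its partner Bcl11b differed less, at 237, 208 and 234 against 92.5, 69.6, 64.9 and 95 CPM (1.49 ± 0.15). Sox5, Zfpm2 and Pcp4, other genes of deep-layer neurons, were higher by 1.85, 2.84 and 2.96 on the log2 scale. Foxp2, Etv1, Ldb2, Nfia and Crym did not pass the test, and Tcerg1l was the 1 member that was lower (-1.88 ± 0.20).

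The subplate is the layer of early-born neurons under the cortical plate. Nr4a2, Ctgf and Hs3st4 are members of the deep-layer list, while Nxph3, Nxph4 and Cplx3 were named only for the size of their difference. Nr4a2 (chromosome 2, 57106830 to 57124003), a nuclear receptor expressed there and also an activity-induced gene, measured 99.5, 108 and 105 CPM in the SE line and 5.04, 4.36, 3.18 and 4.36 CPM in the SA line, a log2 difference of 4.63 ± 0.12 (edgeR adjusted p = 7.76e-08). Ctgf, a secreted matrix protein known from the subplate, measured 193, 228 and 197 against 22.3, 50.6, 56.1 and 39.5 CPM (2.3 ± 0.33). Nxph3 (chromosome 11, 95509845 to 95514570), a secreted ligand of α-neurexins, was at 305, 355 and 314 CPM in the SE line and near 2.22, 2.27, 2.11 and 1.95 CPM in the SA line (7.24 ± 0.17, edgeR adjusted p = 4.69e-08), a 152-fold difference. Its paralog Nxph4 gave 76.7, 103 and 72 against 0.87, 0.684, 0.557 and 0.789 CPM (6.84 ± 0.24). Cplx3, a complexin of subplate neurons and retina, gave 70.8, 100.2 and 77.6 against 2, 2.22, 0.398 and 1.62 CPM (5.83 ± 0.41). Hs3st4, a heparan sulfate sulfotransferase of deep-layer neurons, gave 253, 246 and 255 against 11.4, 8.34, 3.74 and 8.63 CPM (5.01 ± 0.31). None of these groups of values overlapped.

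Genes of upper-layer neurons went the other way as a list. Of 15 genes, 10 were lower and 1, the cadherin Cdh13, was higher, with a median of -1.16. In wild-type cultures alone 7 were lower and 1 higher. Summed CPM were 1615, 1583 and 1592 in the SE line and 3125, 2501, 1635 and 2778 in the SA line, where wild-type replicate 1 stood beside the SE-line libraries. Cux2 (chromosome 5, 121856366 to 122050102), a homeobox factor of upper-layer neurons, measured 9.79, 9.06 and 9.22 CPM in the SE line and 98.3, 81.7, 73.2 and 92.1 CPM in the SA line (-3.2 ± 0.12, edgeR adjusted p = 3.88e-07). Lhx2, a homeobox factor of progenitors and upper-layer neurons, measured 20.8, 20.7 and 17.2 against 141, 157, 139 and 127 CPM (-2.85 ± 0.095). Pou3f2, Pou3f3 and Inhba were lower at -3.06, -1.4 and -2.72, and Cux1 by less (-1.04 ± 0.08). Rorb, a nuclear receptor gene of the same list, did not pass (-0.06 ± 0.15, edgeR adjusted p = 0.754). Tbr1 and Cux2 can be set side by side per transcript length. In the SE line Tbr1 averaged 165 ± 5.61 TPM (SD, n = 3) and Cux2 3.66 ± 0.71 TPM. In the SA line they stood at 25.4 ± 3.04 TPM and 30.9 ± 6.08 TPM (SD, n = 4).

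**Figure D2:**
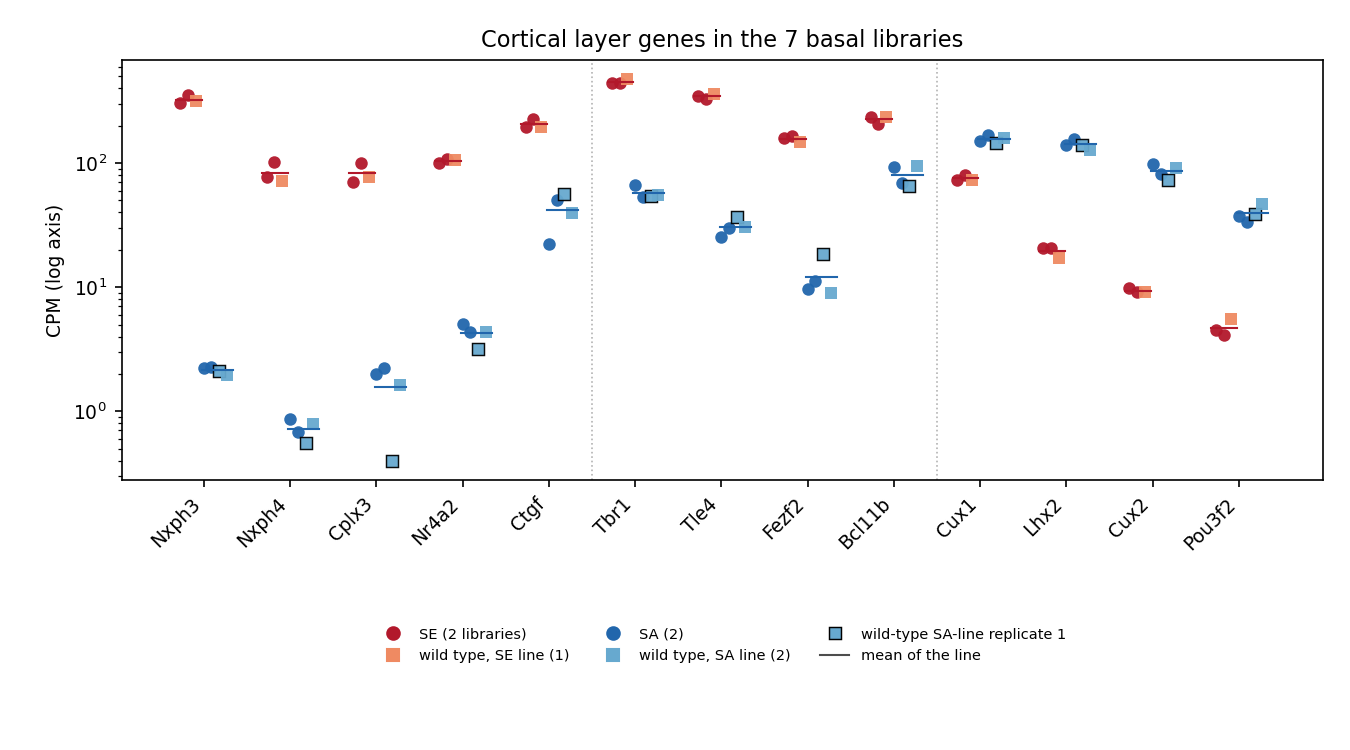
CPM (y axis, log scale) of genes that include subplate markers and genes named for the size of their difference (left), deep-layer factors (middle) and upper-layer genes (right) in each of the 7 basal libraries, red for the SE line and blue for the SA line, circles for mutants, squares for wild type and short lines for line means; the black-edged square is SA-line wild-type replicate 1. The red points lie above the blue for every gene of the left and middle groups and below them for Cux1, Lhx2, Cux2 and Pou3f2.

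**Figure D3:**
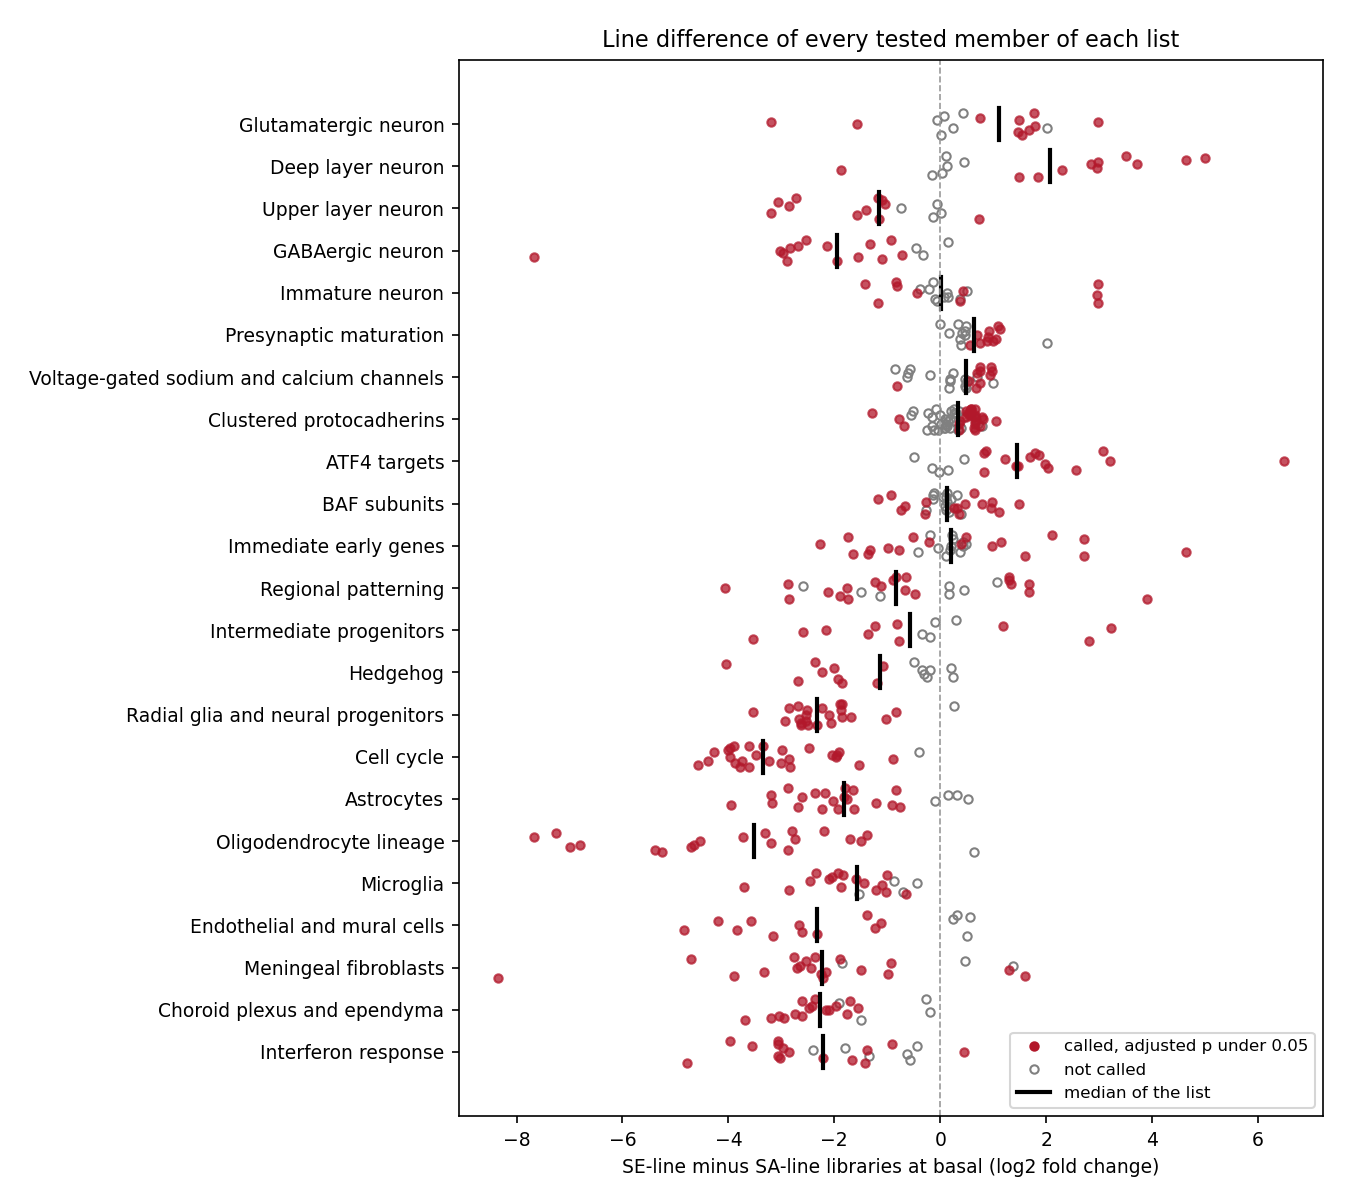
Log2 difference between the lines (x axis, SE minus SA) of each tested member of the gene lists (rows), with filled points past the test and a bar at the list median. Deep-layer and ATF4 target genes lie mostly to the right of 0, and cell cycle, progenitor, glial and GABAergic genes mostly to the left.

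Genes shared by glutamatergic neurons were higher in part. Of 16, 8 were higher and 2 lower (Cux2 and Lmo4, which are also on the upper-layer list), with a median of 1.11. Neurod2, a bHLH factor of cortical excitatory neurons, was higher by 1.46 ± 0.10, the synaptic vesicle gene Sv2b by 1.78 ± 0.43 and Nrn1, a membrane-anchored neurite growth protein, by 1.79 ± 0.23. Emx1, the homeobox factor of the pallial lineage, was higher by 1.68 ± 0.24. Slc17a7, the vesicular glutamate transporter of mature cortical neurons, measured 873, 994 and 863 against 375, 315, 24.7 and 268 CPM and missed the threshold (2.02 ± 0.78, edgeR adjusted p = 0.0566). The SE-line libraries were all higher, but SA-line wild-type replicate 1 stood far below the other 3 of its line. Eomes, a factor of intermediate progenitors that persists in some early neurons, was higher at 20.7, 21.1 and 14.2 against 2.13, 1.5, 1.47 and 2.78 CPM (3.22 ± 0.25). Of the 14 intermediate progenitor genes tested, 3 were higher, Eomes, Rprm (2.81) and Sstr2 (1.19), and 7 were lower, among them Neurog2 (-2.6) and Insm1 (-2.15). The higher count was near the share over all genes (21.8%), where 26.0% were lower. Summed CPM of the 14 genes were 625, 587 and 598 in the SE line and 359, 316, 297 and 325 in the SA line. The sum was thus higher in the SE line although the median was -0.56. Of 20 early-neuron genes 5 were higher and 5 lower, near the shares over all genes (21.8% and 26.0%). Nhlh1 and Nhlh2, bHLH factors of newborn neurons, were higher by 2.97 and 2.97, and Igfbpl1 and Cd24a were lower at -1.42 and -1.18.

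Presynaptic genes were higher in 10 of 20 cases and lower in 0, with a median of 0.63. In mutant cultures alone 6 were higher and 0 lower, with a median of 0.49. Snap25 and Stx1a, SNARE proteins that drive vesicle fusion, were higher by 1.14 ± 0.22 and 0.90 ± 0.24, the calcium sensor Syt1 by 1.08 ± 0.23 and the vesicle protein Syp by 1.00 ± 0.24. Summed CPM of the list were 8637, 8894 and 8684 in the SE line and 6561, 5238, 3231 and 5397 in the SA line, lowest again in SA-line wild-type replicate 1. Of 28 glutamate receptor and scaffold genes 3 were higher and 3 lower, fewer than the 47.8% called over all genes would give. The scaffold Dlg4 was higher (0.90 ± 0.15) and the kainate receptor subunits Grik1 and Grik2 were lower (-1.69 and -0.93). GABA receptor and chloride transport genes gave 6 of 17 higher and 5 lower, beside 21.8% and 26.0% over all genes. Gabra3, a receptor α subunit, was higher (1.21), and Slc12a2, the chloride importer of immature neurons, was lower (-0.96 ± 0.13), while the exporter Slc12a5 did not pass (0.71 ± 0.30, edgeR adjusted p = 0.0713). Sodium and calcium channel genes were higher in 9 of 25 cases and lower in 1, or in 9 and 3 without SA-line wild-type replicate 1. In mutant cultures alone 2 were higher and 0 lower, beside 11.5% and 18.6% of all genes. Potassium channel genes were higher in 7 and lower in 9 of 32 cases, close to the shares over all genes (21.8% and 26.0%). Kcna1, a delayed rectifier subunit of axons, was higher by 2.15 ± 0.17, and the glial inward rectifier Kcnj10 was lower at -1.28 ± 0.22.

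GABAergic genes were lower in the SE line in 14 of 17 cases and higher in 0, with a median of -1.94. The same counts were found after KCl, and 13 were lower in wild-type cultures alone. Their CPM values summed to 409.8, 399.8 and 389 in the SE-line libraries and to 1169, 1092, 991 and 1104 in the SA-line libraries. The transmitter synthesis enzyme Gad1 measured 53.6, 45.3 and 50.2 against 107, 91.8, 127 and 103 CPM (-1.11 ± 0.13, edgeR adjusted p = 0.000118). Factors of ganglionic eminence progenitors and migrating interneurons had larger differences, Dlx1 at -2.53 ± 0.13, Dlx2 at -2.83 ± 0.21 and Lhx6 at -2.97 ± 0.30. Erbb4, a neuregulin receptor of interneurons, gave 12.7, 8.6 and 12.2 against 97.2, 69.9, 100.2 and 94.9 CPM (-3.02 ± 0.16). The peptide gene Vip (chromosome 10, 5639218 to 5647617) had 1 count in all over the SE-line libraries and 239 over the SA-line libraries, a ratio of depth-scaled levels of 165 with a 95% counting interval of 29.3 to 6547. Sst, Calb2 and Dlx6 did not pass the test.

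Progenitor and cell cycle genes were lower in the SE line almost throughout. Of 23 radial glia and progenitor genes, 22 were lower and 0 higher, with a median of -2.33, and Hes1 was the 1 that did not pass (0.25 ± 0.18). Sox2, the stem cell factor, measured 17.3, 16.9 and 17.7 against 82.8, 111, 139.7 and 96.3 CPM (-2.63 ± 0.18), and Fabp7, a fatty acid binding protein of radial glia, 61.4, 63.6 and 58.7 against 431, 487, 541 and 415 CPM (-2.93 ± 0.13). Nes, Vim and Pax6 were lower at -2.64, -2.5 and -1.89. Prom1 had the widest gap of the list (-3.54 ± 0.34). Summed CPM were 1172, 1112 and 1157 in the SE line and 4216, 5615, 6844 and 5091 in the SA line, highest in SA-line wild-type replicate 1.

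Of 27 cell cycle genes, 26 were lower and 0 higher (median -3.34), a count repeated in wild-type cultures alone and after KCl. Mki67 (chromosome 7, 135689784 to 135716361), a marker of cycling cells, measured 6.58, 7.19 and 7.4 CPM in the SE line and 108, 155, 260.5 and 164 CPM in the SA line, a log2 difference of -4.57 ± 0.27 (edgeR adjusted p = 3.13e-06). Every SE-line library was far below every SA-line library. Cdk1, the mitotic kinase, measured 2.44, 2.14 and 1.74 against 18.9, 38.5, 53 and 26.4 CPM (-4.01 ± 0.43). Among genes of mitosis, the topoisomerase Top2a was at -4.38, the kinases Aurkb and Plk1 at -4.26 and -3.78 and the motor Cenpe at -2.86. Among genes of replication, Mcm3 was at -3.01, Mcm5 at -2.48, Mcm2 at -2.04 and Pcna at -0.88, and the S-phase regulator E2f1 did not pass (-0.41 ± 0.21, edgeR adjusted p = 0.134). Summed CPM of the list were 189.8, 187 and 188 in the SE line and 794, 1201, 1827 and 1111 in the SA line.

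Many promoters of cell cycle genes carry CCAAT boxes, the element bound by the trimeric factor NF-Y. In the 250 bases upstream of the RefSeq start, CCAAT on either strand was found in 18 of 23 cell cycle genes with a promoter in the table (78.3%) and in 11120 of 32851 promoters in all (33.8%). The first share is per gene, with a match in any of its promoters, and the second is per promoter, so the units differ. A match is a description of letters and not evidence of binding. The windows around the matches of 2 genes of the list, the cyclin Ccnb2 and the checkpoint kinase Bub1, are shown because both were lower in the SE line (-3.97 and -3.89). They come from RefSeq on GRCm38.p6, with CCAAT or its reverse complement ATTGG in capitals.
Ccnb2 (chr9:70421556-70421656, minus strand): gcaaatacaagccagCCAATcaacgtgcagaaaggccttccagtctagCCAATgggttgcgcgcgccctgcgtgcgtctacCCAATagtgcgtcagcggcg
Bub1 (chr2:127831882-127831942, minus strand): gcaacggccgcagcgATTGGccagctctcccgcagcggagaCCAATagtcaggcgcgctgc
Ccnb2 has 3 matches and Bub1 has 2. Bub1 measured 0.857, 1 and 1.19 CPM in the SE line and 8.13, 14.7, 26.1 and 13.6 CPM in the SA line (-3.89 ± 0.34).

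Glial genes were lower in the SE line. Of 24 astrocyte genes 20 were lower and 0 higher (median -1.82), and 14 were lower in wild-type cultures alone. Aqp4, the water channel of astrocyte endfeet, measured 19.4, 15.8 and 14.4 against 254, 249.9, 185 and 338 CPM (-3.96 ± 0.32, edgeR adjusted p = 1.59e-05), Gfap was lower at -2.03 ± 0.28 and the folate enzyme Aldh1l1 at -3.17 ± 0.14. The glutamate transporter Slc1a2 (0.53 ± 0.38) and the matricellular gene Sparcl1 (0.14 ± 0.33) did not pass. The list includes Slc1a3 and Sox9, which radial glia also express.

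Of 20 oligodendrocyte-lineage genes 19 were lower and 0 higher (median -3.52). Pdgfra (chromosome 5, 75152292 to 75198215), the growth factor receptor of oligodendrocyte precursors and of some fibroblasts, measured 3.29, 4.05 and 4.43 CPM in the SE line and 118, 86.4, 103 and 103 CPM in the SA line, a log2 difference of -4.71 ± 0.15 (edgeR adjusted p = 2.54e-07). Sox10, the lineage factor, measured 1.26, 1.82 and 1.64 against 42.4, 43, 29.6 and 33.9 CPM (-4.54 ± 0.26). The receptor gene Gpr17 was at 0.722, 0.41 and 0.411 against 110.2, 110.1, 20.02 and 92.1 CPM (-7.25 ± 0.89), and the fitted differences of Enpp6 and Cldn11 were -6.99 and -6.79. The myelin genes Mag, Cnp and Mbp were lower at -5.39, -2.8 and -1.38. The sialidase gene Neu4 had 0 counts in all 3 SE-line libraries and was at least 24.6-fold lower, taking 3 counts over the group as the floor. Mog, another myelin gene, was the 1 member that did not pass (0.64 ± 0.25, edgeR adjusted p = 0.0634). Summed CPM of the list were 167, 181 and 169 in the SE line and 1070.2, 1136, 1041 and 969 in the SA line.

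Genes of microglia, vessels, meninges, choroid plexus and ependyma were also mostly lower. Microglial genes were lower in 16 of 20 cases and higher in 0, with sums of 101, 126 and 117 CPM against 241, 279, 273 and 282 CPM. P2ry12, a purinergic receptor of resting microglia, measured 0.18, 0.273 and 0.0913 against 0.913, 0.941, 0.637 and 1.04 CPM (-2.35 ± 0.45). Of 15 endothelial and mural genes tested 11 were lower and 0 higher, and another 7 of the list were too low to test. Acta2, the smooth muscle actin, measured 26, 17.2 and 24.4 against 169.7, 589.9, 589 and 306 CPM (-4.2 ± 0.53) and the endothelial receptor Kdr 2.71, 2.73 and 2.69 against 6.13, 13.5, 43.4 and 12.9 CPM (-2.61 ± 0.59). The endothelial cadherin Cdh5 had 2 counts in all in the SE line and 138 in the SA line (ratio 47.7, 95% counting interval 12.9 to 397), while Pecam1 did not pass (0.24 ± 0.37). Meningeal fibroblast genes were lower in 17 of 22 cases and higher in 2, the retinoid binding gene Crabp2 (1.6) and the zinc finger gene Zic1 (1.29). The collagens Col1a1 and Col3a1 were lower at -2.16 and -2.64, and the fibroblast factor Foxc1 measured 0.676, 0.592 and 0.868 against 2.26, 2.74, 4.46 and 4.11 CPM. Choroid plexus and ependymal genes were lower in 16 of 20 cases and higher in 0. Ttr, the thyroid hormone carrier of choroid plexus, measured 0.722, 39.9 and 167 against 153, 458, 722 and 187 CPM; its values overlapped and its call (-3.19 ± 1.17, edgeR adjusted p = 0.0464) was lost in 6 of 16 other fits, one of them without SA-line wild-type replicate 1. Foxj1, the factor of motile cilia, was lower at -2.96 ± 0.35.

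**Figure D4:**
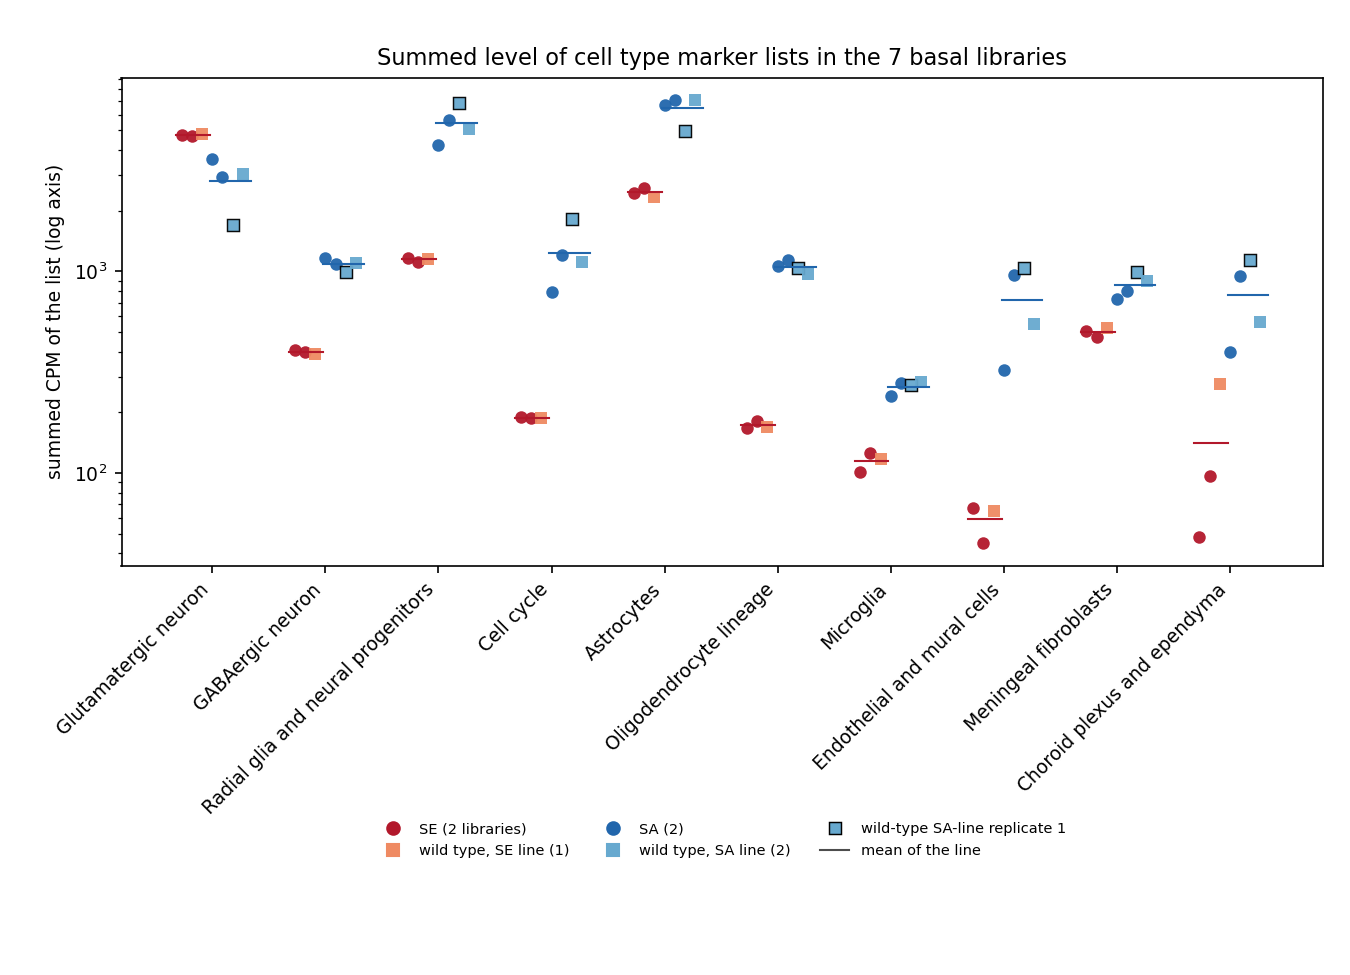
Summed CPM (y axis, log scale) of the tested genes of 10 cell type lists in the 7 basal libraries, red for the SE line and blue for the SA line, circles for mutants, squares for wild type (black-edged for SA-line replicate 1) and short lines for line means. Every SE-line sum is below every SA-line sum for all lists shown except the glutamatergic one, where the SE line is above.

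Of 27 genes that pattern brain regions, 6 were higher and 14 lower, against 21.8% and 26.0% over all genes, and 7 more were too low to test, Hox genes and midbrain factors among them. Gsx2, the factor of the ganglionic eminence ventricular zone, was lower at -4.05 ± 0.52, Sp8 at -1.75 ± 0.16 and Zbtb20, a factor of hippocampus and astrocytes, at -2.12 ± 0.16. Higher were Barhl2 (3.91 ± 0.44), Lhx9 (1.68 ± 0.30) and Zic1 (1.29 ± 0.27), factors known from diencephalon or medial forebrain, and Foxp1 (1.31 ± 0.19), a factor of cortical and striatal neurons. Hedgehog pathway genes were lower in 9 of 16 cases and higher in 0, beside 26.0% and 21.8% over all genes. They were led by the target Gli1 (-4.04 ± 0.70) with the transducer Smo (-2.36 ± 0.27) and the receptor Ptch1 (-1.19 ± 0.16).

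Some of the widest single differences belonged to genes outside these groups. Padi6 (chromosome 4, 140727355 to 140742643), a peptidylarginine deiminase known from oocytes, measured 11.4, 13.5 and 13.6 CPM in the SE line and had 1 count in all in the SA line, against 847. The ratio of levels was 1226, with a 95% counting interval of 219 to 48491. Dmrt2, a DM-domain transcription factor, measured 38.7, 42 and 38 against 0, 0.214, 0 and 0.0415 CPM. Ebf3, a factor of Cajal-Retzius and other early neurons, gave 10.6, 11.7 and 9.77 against 0.391, 0.385, 0.239 and 0.374 CPM (4.94 ± 0.19). Fat2, an atypical cadherin, was higher by 6.63 ± 0.38, Sowahb by 4.96 ± 0.33 and Il11ra2, which shares sequence with other interleukin 11 receptor genes so that its reads are uncertain, by 5.05 ± 0.74. Among abundant genes Nptx1, a secreted pentraxin that clusters AMPA receptors, measured 236, 245 and 243 against 35.3, 27.9, 14.2 and 28.4 CPM (3.22 ± 0.28). Brinp3, Cntnap4 and Prickle1 were higher by 4.25, 3.56 and 3.39.

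Among the genes named for the size of their difference, 3 encode enzymes of retinoic acid metabolism, and no list of that pathway was tested. Cyp26b1, which degrades retinoic acid, measured 267, 291 and 338 CPM in the SE line and 40.7, 29.5, 2.11 and 26.8 CPM in the SA line (3.73 ± 0.82, edgeR adjusted p = 0.00449). Aldh1a2 (chromosome 9, 71215789 to 71296243), which makes it, had 0 counts in the SE-line libraries and 211 in the SA-line libraries, at least 48.6-fold lower. Aldh1a3, a related enzyme, measured 0.271, 0.182 and 0.183 against 11.8, 12.6, 29.9 and 12.4 CPM (-6.21 ± 0.46). Other genes with wide gaps on the lower side were the matrix link protein Hapln1, at 0.857, 1.37 and 1 against 61.8, 47.5, 21.7 and 62.5 CPM, and the hepatocyte growth factor receptor Met, at 5.41, 3.69 and 4.48 against 121, 85.2, 44.7 and 106 CPM (-4.28 ± 0.45). Sfrp1, a secreted Wnt antagonist, measured 10.5, 11.4 and 10.8 against 105, 161, 183 and 139 CPM (-3.75 ± 0.23). Car3, Edn3, Nwd2, Ptprk and the smooth muscle gene Tagln were lower at -5.83, -5.66, -3.59, -3.35 and -3.57. Tmem255b had 2 counts in all in the SE line, for a ratio of 65.3 between the lines (95% counting interval 17.8 to 543).

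Target genes of ATF4, the transcription factor of the integrated stress response, were higher in the SE line. ATF4 is translated when the initiation factor eIF2α is phosphorylated, and it induces genes for amino acid synthesis and uptake and for cell stress. Of 20 targets 15 were higher and 0 lower (median 1.46), also in the mutant cultures alone and after KCl, whereas 7 were higher in the wild-type cultures alone. The median was 1.77 in mutant and 1.09 in wild-type cultures. The edgeR test of the difference between mutant and wild-type cultures given above called 0 genes of any kind. It therefore cannot tell whether the ATF4 targets differ in this respect. Summed CPM were 2575, 2876 and 2656 in the SE line and 1108, 1289, 1806 and 1088 in the SA line, with SA-line wild-type replicate 1 the nearest to the SE line. Atf4 itself (chromosome 15, 80255184 to 80257541) measured 322, 327 and 333 CPM against 96.8, 96.9, 118 and 82 CPM (1.73 ± 0.16, edgeR adjusted p = 2.99e-05). Ddit3, a pro-apoptotic factor downstream of it, measured 31.9, 34.1 and 31.9 against 7.13, 7.27, 10.1 and 7.51 CPM (2.03 ± 0.18). Chac1, a glutathione-degrading enzyme, measured 48.4, 57.4 and 45.6 against 4.65, 5.43, 10.5 and 3.74 CPM (3.07 ± 0.47). The values of these 3 genes did not overlap between lines. Asns, asparagine synthetase, measured 410.2, 472 and 424 against 136, 128, 168 and 102 CPM (1.7 ± 0.19). Slc7a5 and Slc3a2, the 2 chains of a large neutral amino acid transporter, were higher by 1.8 ± 0.20 and 1.23 ± 0.15. Slc7a3, a carrier of cationic amino acids that was not on the list, gave 147, 163 and 161 against 4.57, 4.71, 16.8 and 3.74 CPM (4.5 ± 0.56). The pseudokinase Trib3 was higher by 3.21 ± 0.72, and the hormone gene Fgf21, with 32 counts in the SE line and 0 in the SA line, at least 15.4-fold.

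Not every target moved. The serine synthesis genes Psat1 (-0.50 ± 0.28) and Phgdh (-0.03 ± 0.24), the cystine transporter Slc7a11 (-0.16 ± 0.19), Vldlr (0.14 ± 0.16) and Cth (0.45 ± 0.37) did not pass. Chaperones of the endoplasmic reticulum, which the unfolded protein response induces, were on the other side. Hspa5 was lower at -0.51 ± 0.09, Hsp90b1 at -0.63 ± 0.091, Calr at -0.49 ± 0.082 and the disulfide isomerase Pdia4 at -1.09 ± 0.14. Herpud1 (1.43 ± 0.10) and Xbp1 (0.52 ± 0.092) were higher. Of the 16 heat shock and unfolded protein response genes, Atf4 among them, 4 were higher and 5 lower. Those counts were near the shares over all genes (21.8% and 26.0%).

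ATF4 binds C/EBP-ATF elements with the core TGATGNAA. This core, on either strand, occurred in the upstream 250 bases of 6 of 18 listed targets matched to a promoter (33.3%). It occurred in 1134 of 32851 promoters in all (3.45%). As for the CCAAT box, the first share is per gene and the second per promoter. The windows of 3 targets are shown, 2 that were higher in the SE line (Chac1 and Fgf21) and 1 that did not pass (Slc7a11), from RefSeq on GRCm38.p6 with the core or its reverse complement in capitals.
Chac1 (chr2:119351034-119351071, plus strand): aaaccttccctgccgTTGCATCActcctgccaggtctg
Fgf21 (chr7:45615607-45615644, minus strand): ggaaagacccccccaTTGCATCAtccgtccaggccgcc
Slc7a11 (chr3:50443638-50443694, minus strand): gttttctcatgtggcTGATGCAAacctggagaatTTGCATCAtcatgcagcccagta
Slc7a11 has 2 matches, Chac1 and Fgf21 have 1 each. Slc7a11 measured 22.5, 20.7 and 25.4 CPM in the SE line and 29.6, 15.6, 29.1 and 28.7 CPM in the SA line.

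**Figure D5:**
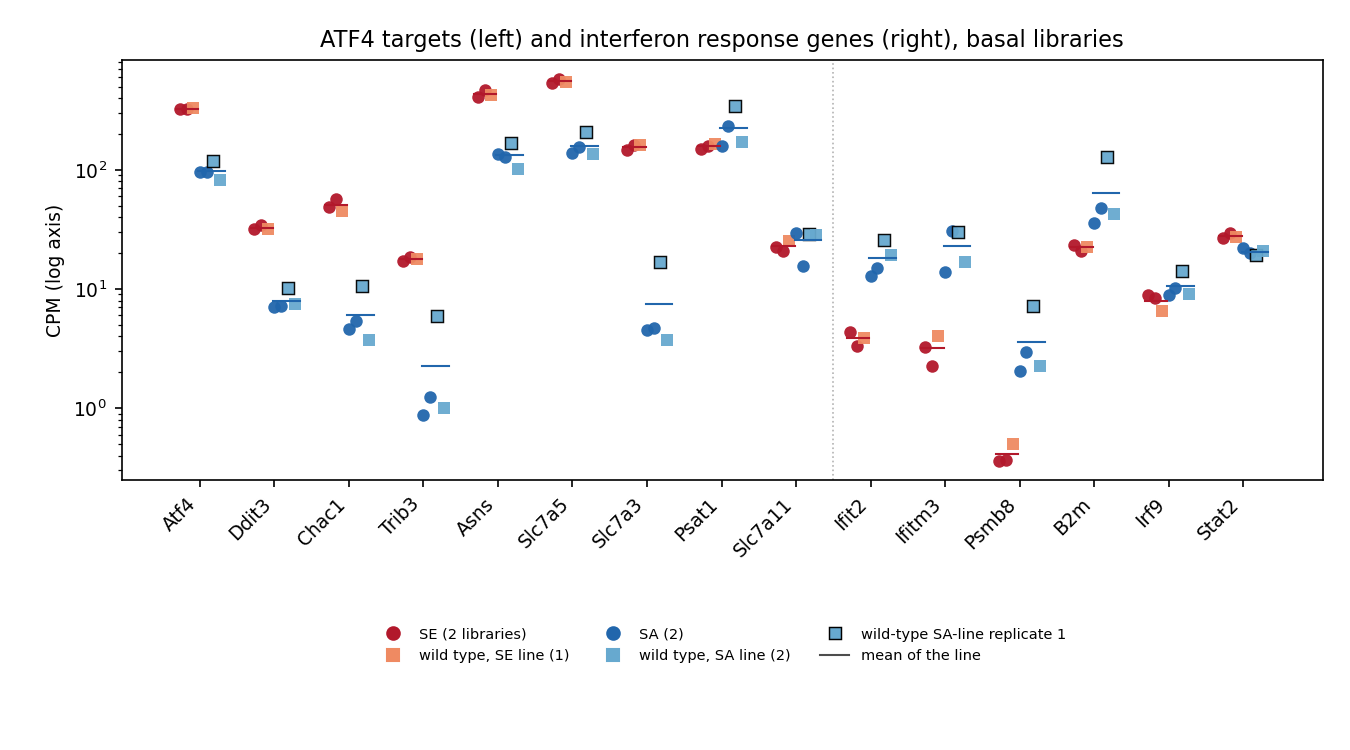
CPM (y axis, log scale) of Atf4, targets of ATF4 and the transporter Slc7a3 (left) and of interferon response genes (right) in the 7 basal libraries, red for the SE line and blue for the SA line, circles for mutants, squares for wild type and short lines for line means. Atf4, Ddit3 and Chac1 are higher in every SE-line library, Psat1 and Slc7a11 are not, and Ifit2, Ifitm3, Psmb8 and B2m are lower.

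Interferon response genes were lower in the SE line in 14 of 21 cases and higher in 1, Stat2 (0.45 ± 0.096), with a median of -2.2. The counts were 11 lower in wild-type cultures and 6 lower in mutant cultures alone, and 12 lower without SA-line wild-type replicate 1, which had the highest sum. The median was -1.35 without that library and -1.12 in mutant cultures alone. Summed CPM were 92, 89.6 and 88 in the SE line and 129, 174, 333 and 155 in the SA line. Ifit2, an RNA-binding antiviral gene, measured 4.33, 3.32 and 3.88 against 13, 14.9, 26 and 19.2 CPM (-2.2 ± 0.19, edgeR adjusted p = 2.31e-05). Ifit3 and Rsad2 were lower at -3.05 ± 0.54 and -3.03 ± 0.40, the immunoproteasome subunit Psmb8 at -3.07 ± 0.48 and Bst2, which tethers virus particles, at -2.98 ± 0.63. Isg15, Tap1 and Irf9 did not pass. B2m, the light chain of MHC class I, measured 23.4, 20.8 and 22.7 against 36, 47.4, 128 and 42.7 CPM (-1.42 ± 0.40), with SA-line wild-type replicate 1 far above the other 3 of its line, and its call was lost in 1 of 16 other fits, without Brg1-SE replicate 2. Of 15 MHC class I genes 6 were lower and 1 higher, against 26.0% and 21.8% over all genes. However, H2 genes are near-identical copies that also differ between strains, so that their estimated counts are uncertain. H2-K1 was lower at -2.04 ± 0.44 and H2-D1 did not pass (0.01 ± 0.28).

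The interferon-stimulated response element has a core of a repeated GAAA with 2 free bases between the copies. It occurred on either strand in 8 of 17 listed genes matched to a promoter (47.1%) and in 978 of 32851 promoters in all (2.98%). Again the first share is per gene and the second per promoter. Among the 8 genes were also Stat2, which was higher in the SE line, and Isg15, which did not pass. The windows of Ifit3 and Rsad2, both lower in the SE line, are shown from the same source. The core or its reverse complement is in capitals.
Ifit3 (chr19:34583358-34583431, plus strand): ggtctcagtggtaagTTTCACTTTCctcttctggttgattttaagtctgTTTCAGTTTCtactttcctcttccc
Rsad2 (chr12:26456548-26456587, minus strand): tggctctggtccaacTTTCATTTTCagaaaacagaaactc
Ifit3 has 2 matches and Rsad2 has 1. Ifit3 measured 0.271, 0.228 and 0.183 CPM in the SE line and 1.09, 1.67, 4.06 and 1.2 CPM in the SA line, and Rsad2 0.0902, 0.182 and 0.137 against 0.783, 0.984, 1.79 and 1.2 CPM.

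Of 30 immediate early genes, which neuronal activity induces, 9 were higher and 9 lower in the SE line, not far from the shares over all genes (21.8% and 26.0%). Higher were Egr4 (2.71 ± 0.18), Fosb (2.72 ± 0.22), Npas4, the neuron-specific early factor (2.11 ± 0.15), and Arc, a regulator of AMPA receptor trafficking (1.6 ± 0.16). Lower were Cyr61 (-2.28 ± 0.36), Ier3 (-1.74 ± 0.40) and Jun (-1.36 ± 0.15), and Fos did not pass (-0.05 ± 0.20). After KCl, 25 of the 30 were higher and 1 lower, against 23.2% and 26.8% of all genes. Of 26 delayed response genes 11 were higher and 4 lower at basal, against 21.8% and 26.0% over all genes. Nptx2 (2.39 ± 0.26) and Rasgrp1 (1.85 ± 0.44) were higher, and Bdnf, whose values overlapped, was higher by 0.73 ± 0.19. Among 26 neuropeptide and granin genes 8 were higher and 5 lower, about as many as the 47.8% called over all genes would give. Trh (2.97 ± 0.20), Cartpt (2.54 ± 0.58) and Penk (1.8 ± 0.23) were higher, and Npy (-2.9 ± 0.37), Pnoc (-2.21 ± 0.31) and Cck (-1.57 ± 0.31) were lower.

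Of 30 genes for BAF subunits, some of which are exchanged when progenitors become neurons, 10 were higher and 6 lower (median 0.13), near the 47.8% called over all genes. Actl6b and Ss18l1, which neurons use, were higher by 0.96 ± 0.11 and 0.46 ± 0.097. Their progenitor counterparts Actl6a and Ss18 were lower at -1.17 ± 0.22 and -0.92 ± 0.13. The neuronal subunit Dpf1 was higher (0.63 ± 0.095), while Phf10, a progenitor subunit, was higher (0.79 ± 0.10) and Dpf3, a neuronal one, was lower (-0.75 ± 0.13). Smarca2, the ATPase that can take the place of BRG1, measured 518, 463 and 504 against 251, 181, 245 and 245 CPM (1.11 ± 0.12, edgeR adjusted p = 8.75e-05). Smarcd3 was higher by 0.98 ± 0.12. Clustered protocadherins, cell surface proteins by which neurons tell self from other, were higher in 22 of 56 cases and lower in 3. Over all genes 21.8% were higher and 26.0% lower. For the 56 the counts were 17 and 4 without SA-line wild-type replicate 1 and 15 and 5 without scaling. In mutant cultures alone 5 were higher and 3 lower, beside 11.5% and 18.6% of all genes. Pcdhgc4 was higher by 1.04 ± 0.12 and Pcdhgc3, which glia and progenitors also express, was lower at -1.3 ± 0.13. Genes of the α and γ clusters share their last exons within a cluster, so that estimated counts for single members of these clusters are uncertain.

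Of 19 genes known to differ among inbred mouse strains, 9 were lower and 2 higher, against 26.0% and 21.8% over all genes. Nnt, the mitochondrial transhydrogenase that is partly deleted in some C57BL/6 substrains, measured 1.08, 1.18 and 0.913 CPM in the SE line and 11.3, 14, 9.31 and 5.44 CPM in the SA line (-3.19 ± 0.27, edgeR adjusted p = 2.01e-05). In the KCl libraries of the same lines it measured 6.74, 7.94 and 3.9 and 7.51, 12, 8.71 and 8.11 CPM, a log2 difference of -0.61, so the gap at basal was not present to the same extent there. Gabra2 was at 5.95, 5.24 and 5.98 against 93.4, 21.2, 26.7 and 28.8 CPM, with Brg1-SA replicate 1 far above the rest, and Wdfy1 at 38.5, 38.8 and 39.5 against 10.1, 61.8, 38.4 and 38.1 CPM, with the same library far below. Xist, expressed from the inactive X chromosome, measured 275, 175 and 301 CPM in the SE line and 635, 0.128, 0.239 and 746 CPM in the SA line, and the Y-linked Ddx3y 13.3, 11 and 13.1 and 0.087, 30.03, 34.7 and 0.125 CPM. The SE-line libraries each held RNA of both sexes, whereas each SA-line library was nearly all of one sex, female for Brg1-SA replicate 1 and wild-type replicate 2 and male for the other two. Xist (-0.47 ± 2.32, edgeR adjusted p = 0.885) and Ddx3y (-0.38 ± 1.80, edgeR adjusted p = 0.882) did not pass between lines.

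Among the 19 autosomes the share of genes called ran from 44.7% on chromosome 5 to 55.4% on chromosome 19. It was 47.0% on the X chromosome. Of 23 genes of the mitochondrial genome 4 were called (17.4%), and of 9 on the Y chromosome 0 were. Within 5 Mb of Smarca4, the edited gene, 43 of 87 genes passed (49.4%), against 48.4% of the 17140 genes with one position.

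The KCl libraries of the same groups, which share no library with the basal comparison, gave most of the same calls. They are not independent of the basal libraries, since same-numbered basal and KCl libraries deviated together in the SA line (correlation of replicate differences 0.422 for Brg1-SA and 0.67 for its wild type, but -0.0512 for Brg1-SE). In the KCl libraries 8872 genes passed (50.0%), 4112 higher (23.2%) and 4760 lower (26.8%). Of the higher calls 3278 were shared with the basal comparison (84.8% of the basal and 79.7% of the KCl list), and of the lower calls 4074 (88.2% and 85.6%), with 15 genes called in opposite directions. The log2 differences correlated with a Pearson r of 0.909 across the 17732 genes. Tbr1, which was higher by 2.98 at basal, was higher by 2.82 after KCl, and Nxph3, at 7.24, was at 7.51. Mki67 went from -4.57 to -4.44, Pdgfra from -4.71 to -4.41 and Chac1 from 3.07 to 3.07.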

How the data were processed

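RNA of 14 libraries of cultured mouse cortical neurons was sequenced, and the 7 basal libraries were compared by line. The authors pseudoaligned reads with kallisto 0.43.1 to GRCm38 (mm10), per the submitters' processing notes, and deposited estimated counts per gene and per transcript. They also deposited TPM, which are scaled to transcript length and library total. The annotation and the strand setting are not given in the sources used here, so overlapping antisense genes cannot be separated.

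Estimated gene counts were rounded and fitted with edgeR 4.0.16 (R 4.3.3, limma 3.58.1) by quasi-likelihood, with TMM scaling, filterByExpr on genotype and treatment (17732 genes kept), 8 group means and all 14 libraries, leaving 6 residual degrees of freedom. The contrast was the mean of the 3 SE-line minus the mean of the 4 SA-line basal libraries, with Benjamini-Hochberg adjustment over all genes. CPM were computed from the same TMM-scaled counts. Depth was 22625916 to 22962088 counts a basal library, and ratios of low counts carry 95% exact intervals that cover counting error only.

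The genes named were Smarca4, up to 10 called genes in each direction with the largest log2 differences (lines not overlapping, basal mean from 1 CPM upward), as many again from 50 CPM upward, and up to 4 genes of lowest p in each of 38 lists. Others were chosen after their values were seen. The members and lists were chosen with earlier results of these data known. Alternatives were RLE scaling, library totals, no filter, a replicate block, fits on the 7 basal libraries, equal weights for genotypes, DESeq2 1.42.0 and each library left out. A test of the difference between the mutant and wild-type line differences, a crossed block and list counts without 1 library were added after seeing the data. Gene positions are from GENCODE M21 on GRCm38 and promoters from RefSeq on GRCm38.p6. Across genotypes at basal, replicate numbers did not pair the samples: the correlation of replicate differences was 0.0268 between Brg1-SA and Brg1-SE, -0.306 between Brg1-SA and its wild type and -0.0179 between Brg1-SE and the SA-line wild type. The fit over 14 libraries treats the basal and KCl libraries of one replicate number as independent, although in the SA line they deviated together. Some genes of the lists are counted but not reported by name here.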

Additional observations from a re-analysis of the deposited data

Results flagged for a closer look

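In the SA line, with 4 libraries, a sample far from the other 3 was looked for in 38 list sums and 236 named genes, and chance marks about 1 in 20 groups. It was found for 1 list and 14 genes, near what that rate alone would give. Of the genes, 8 were marked in replicate 1 of the wild-type SA-line cultures. The clustered protocadherins summed to 1434 CPM in that library and to 1741 to 1792 CPM in the others.

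That library was highest for Aldh1a2 at 5.29 CPM, Aldh1a3 at 29.9 CPM and the mural gene Vtn at 20.6 CPM. It was highest also for the ATF4 targets Ddit3 at 10.1 CPM and Trib3 at 5.97 CPM, for the transporter Slc7a3 at 16.8 CPM and for B2m at 128 CPM. It was lowest for Ebf3 at 0.239 CPM. Brg1-SA replicate 1 was highest for the GABA receptor gene Gabra2 at 93.4 CPM and for Tmem255b at 3.17 CPM, and it held the 1 Padi6 count of the line, 0.0435 CPM. Brg1-SA replicate 2 was lowest for the GABA receptor gene Gabra4 at 22.9 CPM, for Smarca2 at 181 CPM and for Slc7a11 at 15.6 CPM. The part of these libraries in the line difference was not tested beyond leaving each out.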

How the results depend on the processing

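The count of 8483 genes between lines at basal was 6598 to 8410 with each library left out. It was 8550 with RLE scaling, 8137 with library totals only, 7988 with no filter, 8302 and 7463 with fits on the 7 basal libraries, 8128 with genotypes weighted equally and 8206 with DESeq2. With a replicate block it was 8252. The replicate numbers of the Brg1-SA and SA-line wild-type cultures were opposed (correlation of replicate differences -0.306), and with those of the wild type swapped the block gave 9054. The mutant comparison (5334 genes) was 2571 to 4538 with a library left out, which leaves 3 libraries in it. The wild-type count was 3534 to 5670 and the KCl count 7093 to 8601 with a library left out. Of 236 named genes 207 were called, 198 of them in all 16 alternatives, and 0 changed direction. Ribosomal protein genes gave 7 of 32 higher, near the 21.8% over all genes. They gave 17 without SA-line wild-type replicate 1 and 2 without scaling. Slc17a7 passed in 7 alternatives and Mog in 5. Depth limits the genes with 3 or fewer counts in one line, for which only a bound or a wide counting interval was given.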

Other observations

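Of 22 glycolysis and hypoxia genes 7 were higher and 4 lower in the SE line, close to the 47.8% called over all genes. The angiogenic factor Vegfa was higher by 1.17 ± 0.24 on the log2 scale (48.3, 49.7 and 46.4 against 16.6, 21.3, 32 and 16.4 CPM, edgeR adjusted p = 0.00302), and the glucose transporter Slc2a1 was lower at -0.87 ± 0.25 (edgeR adjusted p = 0.0176). Of 20 cholesterol synthesis genes 4 were higher and 1 was lower, and of 13 genes of the mitochondrial genome 2 were higher and 1 lower. Both lists had fewer calls than the 47.8% over all genes would give. Of 12 replication-dependent histone genes tested 2 were higher and 4 lower, not far from the shares over all genes (21.8% and 26.0%). These genes are near-identical copies whose estimated counts are uncertain. Of 11 nuclear retained RNAs 1 was higher, Mirg at 1.09 ± 0.16, and 0 lower, again fewer than 47.8% would give.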
